A study of Homo sapiens with 30 samples.

Results

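Clone 4 is a line of Rh30 cells, an established line of alveolar rhabdomyosarcoma, in which PAX3-FOXO1 carries an FKBP degradation tag. It was compared here with the parental Rh30 line from which the tagged clones were made. The clone count table holds 2 libraries of clone 4 and 2 of the parental line, so 4 of the 30 RNA-seq libraries of the series represent these lines. The fit behind the tests took in all 10 libraries of that table. All 23261 genes of the table were considered, of which 14175 had enough counts to be tested. The parental cells carry no tag. Both lines were labelled as DMSO-treated, neither received the degrader dTAG, and both were grown in RPMI-1640 with 10% FetalPlex serum. The table also holds 2 libraries each of tagged clones 10, 11 and 12, and these served to ask which differences from the parental line were particular to clone 4. A group here is 1 clone, and no label states that its 2 libraries are separate cultures; the p-values therefore cover the spread of these libraries alone, which may be technical.

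PAX3-FOXO1 is the fusion that drives most alveolar rhabdomyosarcoma. It joins the DNA-binding domains of PAX3, a transcription factor of muscle and neural crest progenitors, to the activation domain of the forkhead factor FOXO1. It holds the cells in a muscle-like state that expresses MYOD1 and MYOG but does not complete differentiation. The FKBP tag is a small domain that the dTAG ligands bind and bring to a ubiquitin ligase. A clone descends from a single founder cell, so clones of a tumour line can differ from it and from each other.

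Library totals were 23773431 and 26834005 counts in the parental line and 19770435 and 19556442 in clone 4. Levels are given below as normalised counts, scaled to the mean library size of the table, with library 1 before library 2 of each line. They were not divided by gene length, so they compare libraries and not genes. Differences are log2 changes of clone 4 against parental with their standard errors (SE). A call is an adjusted p under 0.05 by edgeR's quasi-likelihood test with Benjamini-Hochberg adjustment over all genes tested. The parental libraries were unusually alike, with an SD of the log2 difference between them of 0.161 over 11681 genes, against 0.453 in clone 4 and 0.295 to 0.395 in the other clones. The difference between the clone 4 libraries followed transcript length (Spearman's correlation -0.638 across genes, which are not independent replicates). The change of clone 4 from parental followed the GC content of the transcripts (Spearman's correlation 0.536 across 11374 genes), and so did the changes of clones 10, 11 and 12 (0.590, 0.646 and 0.592). This GC trend separates all clones from the parental libraries and cannot be told apart from the difference between the lines. A second fit with GC and length offsets for each library, called the corrected fit below, was therefore added after the data had been seen.

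The muscle markers that identify this tumour were present in both lines. DES, the muscle intermediate filament desmin, measured 9418 and 9629 normalised counts in parental cells and 14281 and 17544 in clone 4. MYOG, the myogenic factor myogenin, measured 7119 and 7301 against 11198 and 13830. MYF5 had 0 counts in all 4 libraries.

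The genes that make up the fusion came first. PAX3 measured 456.5 and 436.5 in the parental libraries and 831.9 and 337.6 in clone 4, which lie on either side of the parental values. Its log2 change of 0.39 (SE 0.31, adjusted p = 0.321) did not pass the test. That value rests on both clone 4 libraries: it was -0.45 (adjusted p = 0.0892) without clone 4 library 1 and 0.83 (adjusted p = 0.00407) without library 2. FOXO1 measured 1604 and 1636 in parental cells and 1266 and 896.7 in clone 4, where both libraries were lower. Its log2 change was -0.58 (SE 0.23, adjusted p = 0.0584), and -0.60 (adjusted p = 0.0153) in the corrected fit. Without clone 4 library 1 it was -0.90 (adjusted p = 0.0176), and DESeq2 gave -0.62 (adjusted p = 0.0269), so its place at the threshold depends on the fit. All 6 libraries of the other clones were also below the parental FOXO1 values, at 606.4 to 1086. Gene counts do not separate the tagged fusion from the PAX3 and FOXO1 genes outside it, so they do not check the tag.

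Clone 4 differed from parental Rh30 at 6723 genes, 47.4% of those tested. The level was higher in clone 4 for 3562 genes (25.1%) and lower for 3161 (22.3%). In bulk RNA, fewer cells expressing a gene and less RNA in each cell cannot be told apart. Called changes of at least 2-fold numbered 1178 higher (8.31%) and 1589 lower (11.2%). Without 1 parental library the counts were 1967 to 1989 higher and 1956 to 1973 lower, and no gene called in the full fit changed sign there. Scaling by library totals gave 2494 higher and 3983 lower, so that 38.5% of calls were higher against 53% with the trimmed-mean scaling, and it moved the median of all genes from 0.05 to -0.13. Genes called higher had a median transcript GC content of 55.5%, genes called lower 41.3%, and genes not called 48.4%. The corrected fit tested 13534 genes and called 6192 (45.8%), of which 3283 were higher (24.3%) and 2909 lower (21.5%), with 877 (6.48%) and 1099 (8.12%) changed at least 2-fold. Of the genes tested in both fits, 2367 of 3471 were called higher in both and 2014 of 3010 lower in both, while 7 had opposite calls.

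Against the mean of clones 10, 11 and 12, clone 4 differed at 3983 genes (28.1%). It was higher at 2219 (15.7%) and lower at 1764 (12.4%), and by at least 2-fold at 686 (4.84%) and 625 (4.41%). A gene was taken as set apart in clone 4 when it passed against both the parental line and the other clones in the same direction, with both clone 4 libraries beyond all 8 others. There were 733 such genes with higher levels (5.17%) and 516 with lower levels (3.64%). Both comparisons use the same clone 4 libraries. Where a library was left out, it was a parental or a clone 4 library. Without 1 library these counts ranged from 492 to 1096 and from 339 to 730.

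The largest rises were in genes that parental cells barely expressed. KRT18 and KRT8 encode the keratins that pair to form the intermediate filaments of simple epithelia. KRT18 measured 1.6 and 2.2 normalised counts in parental cells and 1161 and 1487 in clone 4 (log2 change 9.35, SE 0.39, adjusted p = 7.36e-07). The other clones were split for this gene, with 826.9 and 893.0 in clone 10 and at most 3.7 in clones 11 and 12. KRT8 measured 37.4 and 28.9 in parental cells against 1381 and 1681 in clone 4 (log2 change 5.53, SE 0.30, adjusted p = 1.68e-06). Its highest value among the other clones was 172.4, so KRT8 was set apart in clone 4 (log2 4.71 above the mean of the other clones, adjusted p = 1.46e-07).

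CPXM1, a secreted member of the carboxypeptidase family, had no count in the parental libraries and measured 471.8 and 384.6 in clone 4. With the floor set at 3 counts in each library, the rise was at least 186-fold. A single count in clone 10 was the only one in the 6 libraries of the other clones. KCNB2, a voltage-gated potassium channel, had no count in any library outside clone 4 and measured 24.7 and 31 there, at least 12.1-fold higher than parental.

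MGP, matrix Gla protein, an inhibitor of calcification, measured 30.1 and 28.1 in parental cells and 3418 and 3805 in clone 4 (log2 change 6.95, SE 0.75, adjusted p = 8.79e-05). The other clones were between these lines, from 113.2 to 731.0. ARHGDIB, best known from blood cells, measured 41.4 and 43.3 against 1767 and 2277 (log2 change 5.57, SE 0.35, adjusted p = 5.84e-06). The other clones measured 159.1 to 364.4, above parental and far below clone 4. IQSEC3, an exchange factor for ARF GTPases of synapses, measured 0.8 and 0.7 against 134.3 and 85.0, a ratio of summed counts of 145 (95% exact binomial interval 39.5 to 1200, counting error only).

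UNC13D, which primes secretory granules for release, measured 47.1 and 41.9 in parental cells against 916.8 and 843.9 in clone 4, while the other clones stayed at 19.7 to 86.1. Its log2 change was 4.31 (SE 0.42, adjusted p = 5.21e-05). MMRN2, an extracellular matrix protein of blood vessels, measured 15.4 and 20.2 against 435.3 and 280.2 (log2 change 4.31, adjusted p = 2.40e-05). AFM, the vitamin E-binding protein afamin, measured 1.6 and 3.6 against 178.4 and 203.2 (log2 change 6.10, adjusted p = 7.52e-06). In these 3 genes both clone 4 libraries lay above all 8 others. GPRC5A, an orphan receptor induced by retinoic acid, had a smaller but tightly measured rise, from 234.0 and 241.0 to 1604 and 1410 (log2 change 2.67, SE 0.14, adjusted p = 1.68e-06), with the other clones at 281.4 to 405.2.

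Some large rises were shared with other clones. THY1, the surface glycoprotein CD90, measured 0.8 and 4.3 in parental cells and 538.4 and 742.9 in clone 4. It was higher still in clone 10 (1078 and 1506) and clone 12 (1227 and 1102), and had no count in clone 11. KISS1, the precursor of kisspeptin, rose from 5.7 and 3.6 to 100 and 161.9 (log2 change 4.79, adjusted p = 2.55e-05), with clone 12 close below at 88.0 and 99.7. MLIP, a lamin-interacting protein of muscle, rose from 10.6 and 12.3 to 202.1 and 211.3 (log2 change 4.16, adjusted p = 7.52e-06), with the other clones at 51.6 to 101.7. CD163L1, a scavenger receptor, rose from 138.1 and 132.0 to 796.4 and 973.7 (log2 change 2.71, adjusted p = 5.84e-06), while clone 10 was below parental at 51.5 and 46.9.

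The largest falls were losses of all or nearly all counts. NRK, a kinase of the placenta and embryonic muscle, measured 762.8 and 749.7 normalised counts in parental cells and had no count in clone 4, a fall of at least 227-fold. Clone 12 had lost it too, with 0 and 1.0, whereas clones 10 and 11 kept 458.1 to 1013. LAMA1, the alpha-1 chain of laminin, measured 781.5 and 720.8 in parental cells and 0 and 1.1 in clone 4 (ratio of summed counts 1350, 95% exact binomial interval 242 to 53300). Clone 10 was also near 0 at 2.7 and 5.6, and clones 11 and 12 were at 328.8 to 662.1. COL4A5, a basement membrane collagen chain, measured 212.0 and 225.8 in parental cells and had no count in any of the 8 clone libraries, so its loss, at least 65.7-fold in clone 4, was common to all 4 clones.

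Other losses were shared with some clones. SFRP1, a secreted Wnt antagonist, measured 119.4 and 127.7 in parental cells and had no count in clones 4, 11 and 12, at least 37.1-fold lower in clone 4. PTN, the growth factor pleiotrophin, measured 138.9 and 138.5 against no count in clone 4 (at least 41.6-fold lower), and at most 6.1 in the other clones. VSTM2L, an immunoglobulin-domain protein, fell from 166.5 and 164.5 to no count (at least 49.6-fold), with at most 2.6 in the other clones. FXYD5, which modulates the sodium pump, measured 300.6 and 339.9 against 1.1 and 0 in clone 4. It had no count in clones 10 and 12 and 363.6 and 529.6 in clone 11. GP6, the platelet collagen receptor, fell from 489.8 and 508.0 to 3.2 and 1.1 (log2 change -7.74, SE 0.30, adjusted p = 3.89e-07) and was near 0 in clones 10 and 12 as well. CAPN6, a calpain without protease activity, fell from 3466 and 3499 to 203.1 and 159.6 (log2 change -4.26, SE 0.20, adjusted p = 7.36e-07), as it did in clone 10.

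A smaller set of losses was particular to clone 4. SLC38A5, a glutamine transporter, measured 264.8 and 280.7 in parental cells, 1.1 and 2.3 in clone 4 and 112.9 to 855.7 in the other clones (fitted log2 difference from their mean -7.67, adjusted p = 1.46e-07). ELF4, an ETS transcription factor, measured 335.5 and 308.1 against 12.9 and 5.7 (log2 change -5.08, SE 0.32, adjusted p = 5.61e-06), and 296.0 to 480.2 in the other clones. BCL11B, a zinc finger repressor, measured 103.2 and 109.0 against 3.2 and 2.3 (log2 change -5.20, SE 0.35, adjusted p = 7.52e-06). ST6GAL2, a sialyltransferase, measured 123.5 and 102.5 against 0 and 2.3 (ratio 101, interval 27.8 to 839). CADM1, a cell adhesion molecule, measured 135.7 and 132.0 against 1.1 and 0 (ratio 241, interval 43.0 to 9540), but was also reduced in the other clones, to 10.7 to 29.1. SCUBE1, a secreted and surface EGF-domain protein, fell from 256.7 and 292.2 to 15.0 and 10.3 (log2 change -4.42, adjusted p = 3.71e-06), below the lowest other clone at 57.1.

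By a rule chosen after these values were seen, a gene was called near silent in clone 4 when it had at most 3 raw counts over both clone 4 libraries and a mean of at least 10 normalised counts in parental cells. There were 96 such genes. Of these, 40 had more than 3 counts in each of the other 3 clones and 6 were near silent in all 4 clones. Clones 10, 11 and 12 had at most 3 counts for 32, 22 and 33 of them. In the opposite direction, 31 genes had at most 3 counts in parental cells and a mean of at least 10 in clone 4, and 3 of these had at most 3 counts in every other clone. The 31 include read-through names, some with counts in a single clone 4 library. PHOSPHO2-KLHL23 measured 0 and 90.7 normalised counts in clone 4, and TMX2-CTNND1 37.6 and 0. Of the 88 near-silent genes that could be placed along the genome by symbol, 19 were on the X chromosome, which holds 463 of the 13641 genes placed.

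The near-silent genes of the X chromosome included a continuous run. From RAB9B to NRK the table lists 14 genes in order, and 13 of them had no count in either clone 4 library, although 4 of the 14 had no count in any of the 10 libraries. The raw counts over the run summed to 3064 in parental cells, 2 in clone 4, 2 in clone 12, 2665 in clone 10 and 1898 in clone 11. Both libraries of clones 4 and 12 were thus nearly empty over the run, and both libraries of clones 10 and 11 were not. FAM199X measured 207.1 and 169.6 in parental cells and had no count in clone 4 (at least 56.5-fold lower). TMSB15B, a thymosin beta gene whose reads can be shared with its near-identical copy, measured 120.2 and 101.7 against no count (at least 33.3-fold lower). The genes on either side were still expressed: TCEAL4 measured 3392 and 3296 in parental cells and 2571 and 3750 in clone 4 (log2 change -0.08, adjusted p = 0.704), and RIPPLY1 203.9 and 179.7 against 150.5 and 269.8 (log2 change 0.13, adjusted p = 0.691). MORF4L2, the nearest tested gene before the run, was at -0.49 and MUM1L1, the nearest after it, at -1.17. TCEAL1 and CXorf57, the next tested genes outward, were at -1.02 and -1.36. All of these nearer genes named were called lower, unlike TCEAL4 and RIPPLY1 further out. Neither DNA copy number nor methylation was measured in these data, and the cause of the loss was not tested.

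**Figure D1:**
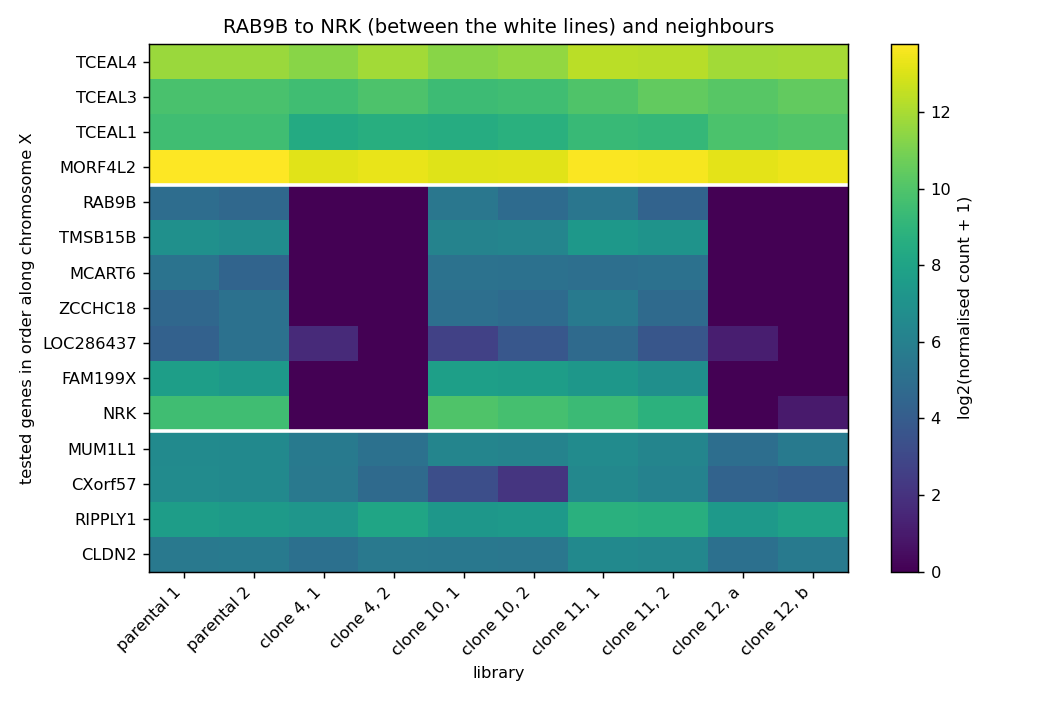
The map shows log2(normalised count + 1) by colour for the 7 tested genes from RAB9B to NRK and 4 tested neighbours on each side (rows, in order along the X chromosome) in the 10 libraries (columns). The run is at or near 0 in both libraries of clones 4 and 12, while the neighbours have counts in all 10 libraries.

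To see whether other differences lay next to each other, tested genes were ordered along each chromosome and the median change was taken in each of 13085 windows of 25 consecutive genes. The 5th and 95th percentiles of these medians were -0.67 and 0.67. The window with the highest median ran from LOH12CR2 to SLC15A5 on chromosome 12, at 1.32 (1.44 in the corrected fit), with 21 of its 25 genes called higher and 0 called lower. Of the 5 highest windows that do not overlap, 3 were on chromosome 12: this one, RAD51AP1 to MLF2 at 1.13 and LEPREL2 to CD163 at 1.09 (0.65 in the corrected fit). The others were TIGD5 to HSF1 at 1.31 (0.85 in the corrected fit), where clones 10, 11 and 12 were at 0.82, 0.90 and 1.20, and NUMA1 to PPME1 at 1.02. The lowest window began at the run described above, RAB9B to CHRDL1 at -1.83 (-1.11 in the corrected fit), and clone 12 was at -1.93 there. Next was ZNF280C to MMGT1 on the X chromosome at -1.73 (-1.54 in the corrected fit), with 0 genes called higher and 23 called lower. In the corrected fit the lowest window was ELF4 to DDX26B, also on the X chromosome, at -1.54. The 3 others, ZNF93 to ZNF254, ZNF880 to ZNF813 and ZNF248 to BMS1P1, hold zinc finger genes and had medians of -1.54, -1.37 and -1.36. Clones 10, 11 and 12 were at -0.87 to -1.82 over these 3 windows, and in ZNF93 to ZNF254 all 3 were lower than clone 4. The clone 4 medians were -0.92, -1.03 and -0.99 in the corrected fit.

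The windows of chromosome 12 and the X chromosome that stood out belong to longer stretches, whose ends were set after the values were seen. From IQSEC3 to YARS2, the first 181 tested genes of chromosome 12 by this order, 115 were called higher and 6 lower, against 25.1% and 22.3% over all genes. The median log2 change was 0.94, and 0.93 in the corrected fit. The other 541 genes of the chromosome had a median of -0.01, with 103 called higher and 131 lower. In clones 10, 11 and 12 the stretch had medians of 0.00, -0.11 and 0.52 against parental, so clone 12 lay between. By library, clone 4 was at 0.92 and 0.83 and clone 12 at 0.45 and 0.38. Against the mean of the other clones, 134 of the 181 were higher in clone 4 and 5 lower. At the edge, FGD4, DNM1L and YARS2 were at -0.11, 0.39 and 1.30 inside. PKP2, ALG10 and ALG10B were at -0.37, 0.81 and -1.28 outside. MGP, IQSEC3, ARHGDIB, GPRC5A and CD163L1 lie in this stretch, with changes far above its median. CDKN1B, the cyclin-dependent kinase inhibitor p27, lies in it too and measured 792.8 and 764.1 in parental cells and 1851 and 1893 in clone 4 (log2 change 1.27, SE 0.19, adjusted p = 0.000465). The stretch holds 1.33% of the genes placed and 10.8% of those set apart with higher levels in clone 4. Its ends were set with the same values in view, so a raised share follows in part from that choice.

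The stretch of the X chromosome ran from SMARCA1 to TMEM185A. All 49 tested genes had lower values in clone 4, 45 were called lower and 0 higher, and the median was -1.65 (-1.50 in the corrected fit). Clones 10, 11 and 12 were at -0.33, -0.12 and -0.23, and 44 of the 49 genes were lower in clone 4 than in the mean of these clones. The other 414 tested genes of the X chromosome had a median of -0.23, with 63 called higher and 152 lower. By library, the stretch was at -1.56 and -1.64 in clone 4 and between -0.37 and -0.11 in the other clones. At the far edge, CXorf40A and TMEM185A, inside, were at -0.58 and -1.45. The next genes outside, CXorf40B, MAMLD1 and MTM1, were at 0.57, 0.51 and -0.67. At the near edge XIAP, STAG2 and CXorf64, outside, were at -1.40, -1.40 and -4.84. In the corrected fit they were at -0.84, -0.68 and -5.03. All were called lower, so lower values continued past this end of the stretch. HPRT1, the purine salvage enzyme often used as a reference gene and chosen after its values were seen, lies in this stretch and fell from 1255 and 1293 to 364.3 and 438.6 (log2 change -1.67, SE 0.18, adjusted p = 9.19e-05; -1.24 in the corrected fit). The stretch holds 0.359% of the genes placed and 7.34% of those set apart with lower levels. Here too the raised share follows in part from how the ends were set. Whether either stretch differs in DNA copy number was not tested.

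**Figure D2:**
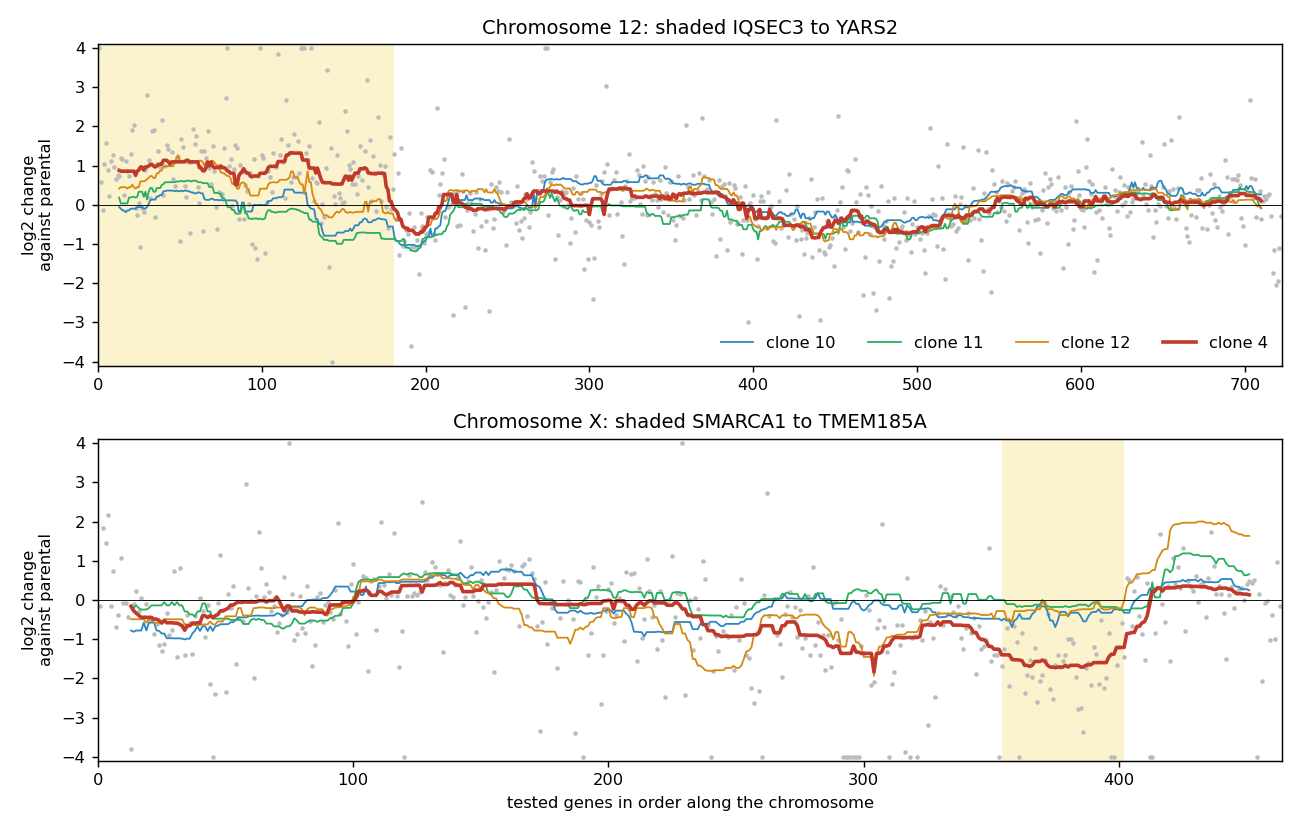
Points give the log2 change of clone 4 against parental for each tested gene in order along chromosome 12 (top) and the X chromosome (bottom), drawn at the edge where beyond 4 or -4; lines give running medians of 25 genes for each clone. Clone 4 runs near 1 over the shaded IQSEC3 to YARS2 stretch and near -1.6 over SMARCA1 to TMEM185A, where the other clones are closer to 0.

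**Figure D3:**
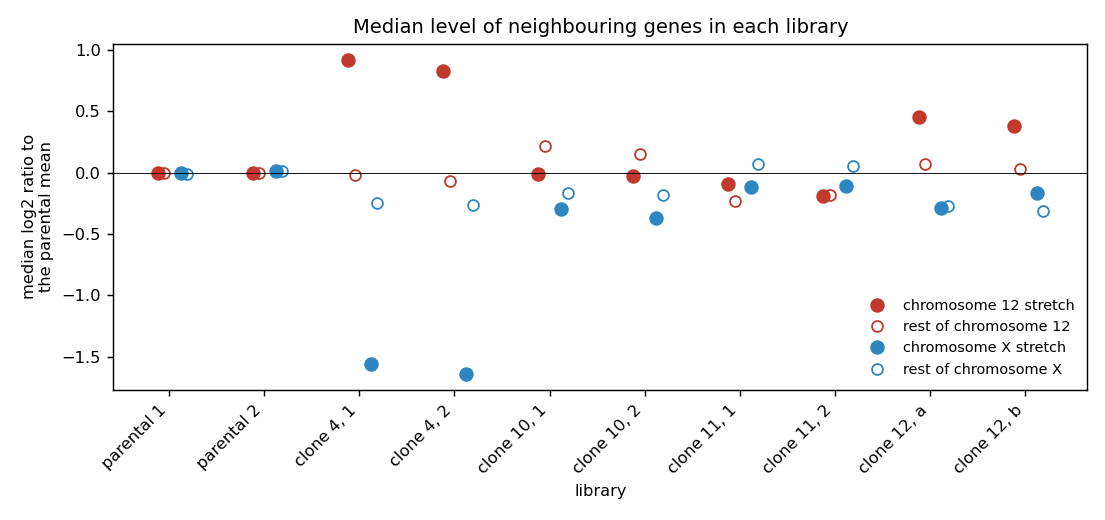
Filled circles give the median log2 ratio to the parental mean over the chromosome 12 stretch (red) and the X stretch (blue) in each of the 10 libraries, and open circles the rest of the same chromosome. Both clone 4 libraries are apart from the other 8 in both stretches, with clone 12 partway on chromosome 12.

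Cancer-testis genes are normally expressed in germ cells and are switched on in many tumours, where loss of promoter methylation is the usual route. Only 6 of 29 listed members had enough counts in some line to be tested, which favours genes that differ between lines, and 5 of these were called lower and 0 higher. MAGEA3 measured 382.6 and 446.6 normalised counts in parental cells and had no count in clone 4, at least 124-fold lower. CTAG2, which encodes LAGE-1, measured 123.5 and 145.0 against no count, at least 40.3-fold lower. Reads of MAGEA3 can be shared with MAGEA6 and those of CTAG2 with its near-identical copy, so the split between copies is uncertain. MAGEC2 measured 167.3 and 178.9 against 0 and 1.1 (ratio 313, interval 55.8 to 12400), and MAGEC1, its neighbour, 51.2 and 59.2 against 1.1 and 0 (ratio 99.8, interval 17.6 to 3970). Clones 10 and 11 were also near 0 for both neighbours, whereas clone 12 was above parental, with 584.3 and 549.3 for MAGEC2 and 1011 and 971.8 for MAGEC1. The same genes were thus near silent in some clones and high in another.

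Promoter sequences are shown for the switched pair MAGEC1 and MAGEC2, for NRK from the silent run, and for KRT8, which went the other way. Each is the 250 bases before the annotated start in RefSeq, build GRCh38.p14, written 5′ to 3′ on the gene's strand, with every CG, the site of DNA methylation, in capitals. They lie at chrX:141903644-141903893 (plus strand), chrX:142205291-142205540 (minus strand), chrX:105822289-105822538 (plus strand) and chr12:52926470-52926719 (minus strand), in that order.
MAGEC1: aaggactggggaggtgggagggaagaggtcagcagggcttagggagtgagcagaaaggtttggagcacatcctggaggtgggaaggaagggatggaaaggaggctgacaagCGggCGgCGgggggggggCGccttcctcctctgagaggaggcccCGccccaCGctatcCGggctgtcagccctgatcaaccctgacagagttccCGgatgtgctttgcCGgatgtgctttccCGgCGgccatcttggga
MAGEC2: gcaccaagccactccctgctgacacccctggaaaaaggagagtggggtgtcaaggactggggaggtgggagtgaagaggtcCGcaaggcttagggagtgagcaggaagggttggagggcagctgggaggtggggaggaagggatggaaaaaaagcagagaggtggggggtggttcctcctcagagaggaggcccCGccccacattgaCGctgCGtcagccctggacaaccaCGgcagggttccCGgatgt
NRK: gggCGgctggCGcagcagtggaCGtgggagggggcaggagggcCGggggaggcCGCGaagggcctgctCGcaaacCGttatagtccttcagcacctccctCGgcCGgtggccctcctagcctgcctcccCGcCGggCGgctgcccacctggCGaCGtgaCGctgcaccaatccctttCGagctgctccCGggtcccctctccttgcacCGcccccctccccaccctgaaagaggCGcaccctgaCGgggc
KRT8: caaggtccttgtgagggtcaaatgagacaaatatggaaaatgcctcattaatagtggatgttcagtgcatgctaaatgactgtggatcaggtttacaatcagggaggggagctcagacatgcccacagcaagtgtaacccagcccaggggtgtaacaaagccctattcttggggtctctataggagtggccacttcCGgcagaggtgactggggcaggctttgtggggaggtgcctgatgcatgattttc
MAGEC1 holds 11 CG, MAGEC2 6, NRK 21 and KRT8 1. Of the promoters of tested genes found in the RefSeq table, 10944 in all, 18.3% had fewer CG than MAGEC1, 10.1% fewer than MAGEC2, 48.8% fewer than NRK and 0.950% fewer than KRT8. The median over these promoters was 21 CG, and 10.1% had 5 or fewer. The genes near silent in clone 4 had a median of 9 CG (61 of 96 found), and 29.5% had 5 or fewer. Those gained from near silence in parental cells, a set with some read-through names, also had a median of 9 (21 of 31 found). Of those found, 33.3% had 5 or fewer. Genes set apart with higher or lower levels had medians of 21 and 19. A single annotated start was taken for each gene, so promoters at other starts, of KRT8 or of any other gene, were not counted. Which start these cells used was not tested. A CG count describes these letters only, and methylation was not measured.

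HOX genes encode transcription factors that set position along the body axis. Of 32 tested members of the 4 clusters, 15 were called lower in clone 4 and 1 higher, with a median log2 change of -0.44, beside 22.3% lower, 25.1% higher and a median of 0.05 over all genes. The corrected fit called 20 lower and 1 higher. Against the other clones 14 were lower and 0 higher. HOXD11 measured 62.6 and 63.5 in parental cells and 0 and 1.1 in clone 4 (ratio 114, interval 20.1 to 4510), and its neighbour HOXD10 measured 13 and 13.7 against no count, at least 4.0-fold lower. The other clones kept 28 to 65.4 for HOXD11. HOXB9 fell from 527.2 and 533.2 to 79.5 and 81.5 (log2 change -2.72, SE 0.27, adjusted p = 5.92e-05), HOXD8 from 109.7 and 111.1 to 22.6 and 17.2 (log2 change -2.46, adjusted p = 0.000216) and HOXC6 from 174.7 and 154.4 to 62.3 and 66.6 (log2 change -1.35, adjusted p = 0.000265). All 3 were below every other clone library. By cluster, 3 of 11 HOXA, 4 of 9 HOXB, 4 of 7 HOXC and 4 of 5 HOXD genes were called lower than parental. Over the same tested genes of each cluster, 0, 6, 4 and 4 were lower than the other clones. HOXB13, at 0.89, was the HOX gene called higher.

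Among 50 tested contractile and differentiation genes of muscle, 32 were called higher in clone 4 and 2 lower, with a median of 0.80, beside 25.1% higher, 22.3% lower and a median of 0.05 over all genes. The counts were 26 and 4 in the corrected fit, with a median of 0.63. MYOD1, the factor that commits cells to the muscle lineage, measured 25733 and 25422 in parental cells and 54942 and 68535 in clone 4 (log2 change 1.27, SE 0.15, adjusted p = 0.000115; 0.79 in the corrected fit). CDH15, the muscle cadherin, measured 9918 and 9911 against 27008 and 29125 (log2 change 1.501, SE 0.14, adjusted p = 3.58e-05). MYOG rose by a log2 of 0.80 (adjusted p = 0.00141), to levels that the other clones also had, at 8668 to 15708. Both clone 4 libraries of all 3 genes were above both parental libraries.

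CAV3, the caveolin of muscle membranes, measured 848.9 and 832.0 in parental cells, 2949 and 3875 in clone 4 and at most 1918 in the other clones (log2 change 2.02, SE 0.17, adjusted p = 2.55e-05). It was set apart in clone 4. MYH8, the perinatal myosin heavy chain, rose from 26.0 and 22.4 to 254.7 and 256.1 (log2 change 3.40, SE 0.35, adjusted p = 6.93e-05), and the other clones reached 105.1 to 256.9. SGCA, alpha-sarcoglycan of the dystrophin complex, rose from 847.3 and 804.5 to 2334 and 2936 (log2 change 1.67, adjusted p = 0.000106). MYPN, a Z-disc protein, rose from 8.1 and 10.1 to 68.8 and 59.7 (log2 change 2.80, adjusted p = 0.000114), with clone 11 lower at 2.7 and 4.0 and clone 12 higher at 107.6 and 90.3. The members called lower were MYL4, the embryonic and atrial myosin light chain (log2 change -0.67), and ATP2A1, the calcium pump of fast muscle (-0.71). Against the other clones the list was less one-sided, with 12 of 50 higher and 6 lower in clone 4 and a median of 0.17. Among 13 tested myogenic transcription factors, MYOD1 and MYOG were the 2 called higher, and 4 were called lower, SIX4 among them (log2 change -0.94, adjusted p = 0.0015).

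Of 35 tested published targets of PAX3-FOXO1, 8 were called higher and 8 lower, which is close to the 25.1% and 22.3% over all genes. The median was -0.03, or -0.33 without clone 4 library 1, and the corrected fit called 9 and 12. Against the mean of the other clones, 17 of the 35 were higher in clone 4 and 4 lower, with a median of 0.42. Over all genes that contrast called 15.7% higher and 12.4% lower. ABAT, which breaks down GABA, measured 2291 and 2269 in parental cells and 841.5 and 629.2 in clone 4 (log2 change -1.63, SE 0.17, adjusted p = 6.01e-05), below all other clones. GREM1, a secreted BMP antagonist, measured 1349 and 1411 against 5663 and 3987 (log2 change 1.81, SE 0.25, adjusted p = 0.000326), above all other clones. RASSF4, a member of the RASSF tumour suppressor family, fell from 821.3 and 858.7 to 383.7 and 430.6 (log2 change -1.05, adjusted p = 0.000631). FGFR4, a receptor that is a direct target of the fusion, measured 20211 and 20282 against 19067 and 21904 (log2 change 0.02, SE 0.19, adjusted p = 0.950), so its clone 4 values lie on either side of the parental ones. In the corrected fit it was lower by the test, at -0.45 (adjusted p = 0.0225). MYCN, a MYC-family oncogene, fell from 3752 and 3859 to 2664 and 2621 (log2 change -0.53, adjusted p = 0.00724). The chemokine receptor gene CXCR4 fell by 1.08 on the log2 scale (adjusted p = 0.000699).

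Of 31 tested receptor tyrosine kinases, 16 were called higher and 2 lower, beside 25.1% and 22.3% over all genes, with a median of 0.65, or 0.35 without clone 4 library 1, and 16 and 5 in the corrected fit. Against the other clones 15 were higher and 1 lower. EPHB1, an ephrin receptor, measured 184.4 and 159.5 in parental cells, 844.8 and 507.5 in clone 4 and 25.7 to 340.9 in the other clones (log2 change 1.98, SE 0.24, adjusted p = 0.000144). FGFR3 measured 109.7 and 121.9 against 638.4 and 536.2 (log2 change 2.34, SE 0.35, adjusted p = 0.000465), above all other clones. EPHA2, another ephrin receptor, and ERBB2 (HER2) rose by 1.15 and 1.20 on the log2 scale, and neither was above all other clones. PDGFRA and ROR1 were the members called lower.

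Of 21 tested genes of ERK feedback and the immediate-early response, 4 were called higher and 1 lower, both below the 25.1% and 22.3% of all genes. DUSP4, a phosphatase that restrains ERK, was the one that fell, from 308.7 and 274.9 to 60.2 and 68.9 (log2 change -2.18, SE 0.26, adjusted p = 0.000157), while the other clones were above parental at 368.1 to 863.9. FOSL1, a component of AP-1, rose from 57.7 and 66.4 to 220.3 and 280.2 (log2 change 2.01, adjusted p = 0.00054), just above the clone 12 values of 195.6 and 211.8. Of 19 tested YAP and TEAD-responsive genes, 9 were called higher and 1 lower, beside the same shares over all genes, with a median of 0.63, or 0.37 without clone 4 library 1. CTGF rose from 275.4 and 301.6 to 925.4 and 717.6 (log2 change 1.51, SE 0.20, adjusted p = 0.000264) and CYR61 from 1645 and 1655 to 4489 and 4248 (log2 change 1.41, adjusted p = 0.000663). Clone 10 had values of 993.9 and 993.6 for CTGF and 4040 and 4282 for CYR61, so the levels of these genes were not particular to clone 4. Against the mean of the other clones, 12 of the 19 were higher in clone 4 and 1 lower, with a median of 0.72. Over all genes that contrast called 15.7% higher and 12.4% lower.

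Growth factor binding and imprinted genes gave 8 called higher and 5 lower of 22 tested, beside 25.1% and 22.3% over all genes. The corrected fit called 8 higher and 9 lower. IGFBP5, which binds insulin-like growth factors and rises in muscle differentiation, fell from 818.8 and 769.9 to 51.6 and 19.5 (log2 change -4.46, SE 0.44, adjusted p = 5.28e-05), with the other clones at 420.5 to 2539. IGFBP4 rose from 252.6 and 248.9 to 746.9 and 914.0 (log2 change 1.73, adjusted p = 0.000182). MEG3, an imprinted long noncoding RNA, fell from 7281 and 7537 to 2496 and 2068 (log2 change -1.70, SE 0.22, adjusted p = 0.00024), below every other clone library. IGFBP5 and MEG3 were thus set apart as low, and IGFBP4 was not, since the other clones were on average higher.

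Of 27 tested collagen genes 9 were called higher and 5 lower, beside 25.1% and 22.3% over all genes, so the share called was near that of all genes. COL14A1 measured 4188 and 4028 in parental cells and 14061 and 10085 in clone 4, above every other clone (log2 change 1.56, SE 0.16, adjusted p = 6.73e-05). COL16A1 measured 151.1 and 168.1 against 47.3 and 48.2 (log2 change -1.74, SE 0.18, adjusted p = 6.52e-05), while the other clones were above parental at 292.5 to 716.4. COL15A1 fell from 647.4 and 542.6 to 96.7 and 70.0 (log2 change -2.83, adjusted p = 2.51e-05), to the level of clone 11. Of 27 integrins and laminins, 8 were called higher, LAMB3 and ITGB4 among them (log2 changes 1.18 and 1.23), and 3 lower, with LAMA1 described above. Of 24 cadherins and protocadherins outside the clusters, 9 were called higher and 4 lower. CDH6 rose from 134.0 and 138.5 to 774.9 and 444.4 (log2 change 2.16, adjusted p = 0.000427), above all other clones, and PCDH10 from 32.5 and 39.7 to 370.8 and 240.0 (log2 change 3.07, adjusted p = 2.90e-05). PCDH19 fell from 34.1 and 28.9 to 6.4 and 3.4 (log2 change -2.63, adjusted p = 0.00096).

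Of 24 S phase genes 12 were called higher and 1 lower, and of 24 G2/M genes 4 were called higher and 10 lower, beside 25.1% and 22.3% over all genes. The medians were 0.36 and -0.06, and the difference between the lists was not tested. The corrected fit called 10 and 2, and 3 and 8. Against the other clones the counts were 9 and 0 for S phase and 4 and 1 for G2/M. MCM3, a subunit of the replicative helicase, rose from 4193 and 4048 to 8133 and 7978 (log2 change 0.97, SE 0.12, adjusted p = 0.000182), and TYMS, thymidylate synthase, by 0.98 (adjusted p = 0.000254). CENPE, a kinesin of the kinetochore with a long transcript, fell from 2068 and 2088 to 411.6 and 374.3 (log2 change -2.40, SE 0.36, adjusted p = 0.000478), and by 1.63 in the corrected fit. The other clones measured 300.7 to 1043, all below parental as well. CDKN1A, the p21 inhibitor, rose from 2662 and 2727 to 6917 and 9008 (log2 change 1.56, SE 0.26, adjusted p = 0.000836), and among 16 tested p53-responsive genes 4 were called higher and 5 lower, MDM2 being lower (log2 change -0.82, adjusted p = 0.00148). Of 10 replication-dependent histone mRNAs, 7 were called higher and 1 lower, and how far such mRNAs are captured depends on how RNA was selected, which the labels do not give.

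The remaining pathway lists are read against the 25.1% called higher and 22.3% called lower over all genes. For Notch, 5 of 18 were called higher and 2 lower, but 2 and 8 in the corrected fit; DLL1, a ligand, fell from 586.5 and 590.2 to 293.4 and 295.1 (log2 change -0.999, adjusted p = 0.000568), below every other clone. For Wnt the calls were 9 higher and 3 lower of 30, but 7 and 6 in the corrected fit, with LRP5, a co-receptor, at 1.09. TGF-beta and BMP genes gave 11 higher and 7 lower of 38, with LTBP2 at 2.15 and the receptor TGFBR1 at -1.29. FOXO and FOXO-responsive genes gave 4 higher and 3 lower of 16, with CITED2 at 1.501. Axon guidance genes gave 10 and 8 of 41, with the netrin receptor UNC5B at -2.89, and potassium channels 8 and 8 of 26. Neuronal genes gave 4 and 4 of 12, the BCL2 family 4 and 1 of 13 and chromatin repressors 10 and 4 of 28. In the corrected fit, axon guidance genes gave 11 and 13, potassium channels 6 and 9 and neuronal genes 3 and 5. The BCL2 family gave 3 and 1 there and chromatin repressors 7 and 7. TGF-beta and BMP genes gave 12 and 7 and FOXO genes 3 and 5 in that fit. Over all genes it called 24.3% higher and 21.5% lower.

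Of the stress and metabolic lists, heat shock genes gave 6 higher and 0 lower of 12, with HSPA8 at 1.11, and cholesterol synthesis genes 8 and 2 of 16. SQLE, squalene epoxidase, rose from 1262 and 1269 to 2474 and 2092 (log2 change 0.85, adjusted p = 0.000781), above every other clone. ATF4-responsive genes gave 5 and 1 of 17 and hypoxia and glycolysis genes 7 and 4 of 20. Respiratory chain genes gave 12 and 4 of 37 and ribosome biogenesis genes 9 and 2 of 20. In the corrected fit these 4 lists, in order, gave 6 and 1, 7 and 7, 16 and 4, and 6 and 4. Heat shock and cholesterol synthesis genes gave 6 and 1, and 9 and 2, there. Against the other clones the same 4 lists gave 0 and 4, 5 and 0, 0 and 8, and 2 and 5. Heat shock genes gave 2 and 2 and cholesterol synthesis genes 8 and 0 in that contrast. Over all genes it called 15.7% higher and 12.4% lower. GAPDH, chosen after its values were seen because it is a common reference gene, measured 63231 and 66111 in parental cells and 153539 and 193316 in clone 4 (log2 change 1.42, SE 0.18, adjusted p = 0.000224; 1.01 in the corrected fit). GAPDH lies in the stretch of chromosome 12 described above, which had a median of 0.94. It was higher in clone 4 under every alternative tried, from 1.01 to 1.54 on the log2 scale. Interferon-stimulated genes gave 1 and 1 of 14, with IFITM1 falling from 111.3 and 133.5 to 6.4 and 9.2 (log2 change -3.96, adjusted p = 7.62e-05), and antigen presentation genes 4 and 0 of 11, but 1 and 0 in the corrected fit.

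**Figure D4:**
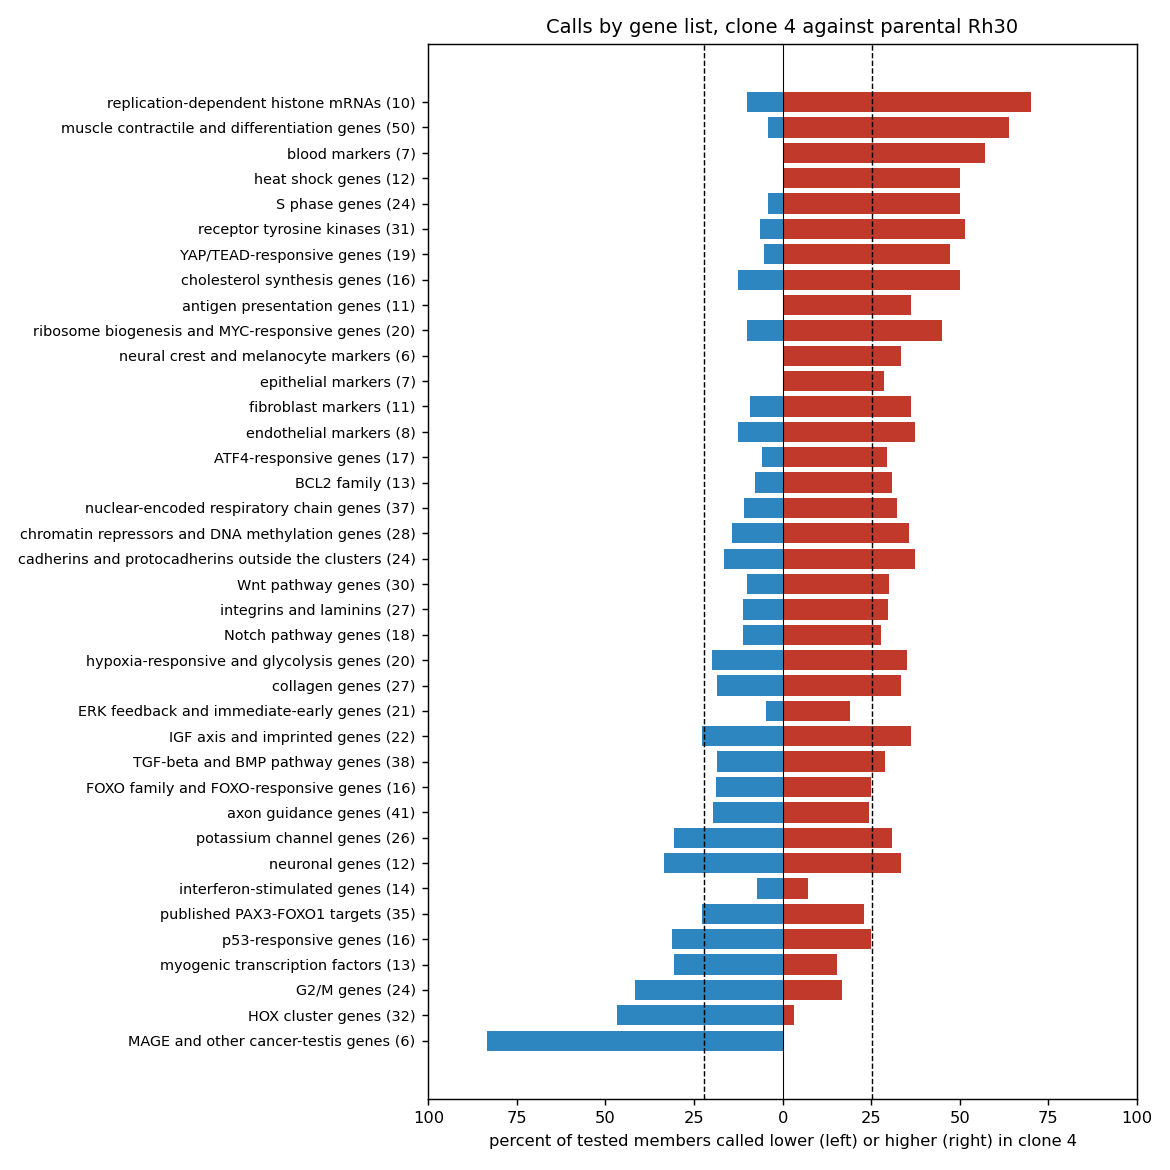
Bars give the percentage of tested members of each list (number in parentheses) called lower (blue, left) or higher (red, right) in clone 4 against parental. Dashed lines mark 22.3% and 25.1%, the shares over all genes; muscle genes, receptor tyrosine kinases and S phase genes extend furthest beyond the right line among lists of over 20 genes, and HOX genes beyond the left.

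Marker lists of other cell types were measured in both lines. The sum over 18 epithelial markers was 340 and 360 normalised counts in parental cells and 2755 and 3543 in clone 4, carried by KRT8 and KRT18, while 12 of the 18 were under 10 in all 4 libraries, CDH1 and KRT19 among them. The 21 blood markers summed to 2241 and 2313 against 5016 and 6156, with PTPRC and CD3D among the 15 under 10. LAPTM5 made up most of that sum, at 1777 and 1778 against 3998 and 4777 (log2 change 1.30, adjusted p = 0.0136; adjusted p = 0.0634 without parental library 1, 0.0646 without parental library 2 and 0.0549 without clone 4 library 2). The 15 fibroblast markers summed to 35109 and 35229 against 41109 and 40286, mostly VIM, with DCN, LUM, FAP, POSTN and TWIST2 under 10. The 11 endothelial markers summed to 293 and 257 against 551 and 580, with 3 under 10, and the 13 neural crest markers to 1389 and 1360 against 2213 and 1675, with 7 under 10, SOX10 among them. Of those tested, 2 of 7 epithelial, 4 of 7 blood, 4 of 11 fibroblast, 3 of 8 endothelial and 2 of 6 neural crest markers were called higher, and 0, 0, 1, 1 and 0 lower. Over all genes the shares were 25.1% higher and 22.3% lower. In the same order, the corrected fit called 2, 3, 4, 2 and 2 higher and 0, 1, 1, 1 and 1 lower.

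A separate experiment of the series treated an FKBP-tagged PAX3-FOXO1 Rh30 line with 500 nM dTAG, and the labels do not say which clone it was. Its table holds 1 pooled column for each condition, so the changes have no error. Of the genes at least 2-fold higher in clone 4, 860 were measured there, and 10.3% were at least 2-fold higher and 8.95% at least 2-fold lower at 72 h of dTAG against DMSO. Of the 1297 at least 2-fold lower in clone 4, 5.09% were higher and 2.70% lower. For genes set apart in clone 4 with higher levels, the shares past 2-fold were 4.05% up and 8.45% down, and for those with lower levels 7.42% and 1.75%. Over all 12292 genes the shares were 3.38% and 3.03%. In a line with tagged FOXO1 in place of the fusion, given the same dose, no more than 1.15% of any of these sets passed 2-fold in either direction. GREM1 went from 3480 to 538.6 (log2 change -2.69) and CDH6 from 343.3 to 74.7 (-2.17) at 72 h, whereas CAV3 went from 859.9 to 2190 (1.35) and CTGF from 662.6 to 3589 (2.43), and all 4 genes were higher in clone 4 than in parental cells. In the DMSO column of that line CPXM1 was listed at 0 and NRK at 1939, unlike clone 4.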

How the data were processed

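RNA was isolated with TRIzol and sequenced on Illumina instruments, per the labels. The submitters' processing notes list hg19 as the build and Trimmomatic 0.32, Bowtie2 and Cuffdiff 2.1.1 as tools. No source used here gives the counter, the annotation or the strandedness. The clone table was deposited as raw counts, 1 column per library, and all of its columns were used. The time-course tables were deposited as estimated counts, mostly not whole numbers, with 1 pooled column per condition; they were scaled by the trimmed mean of M values (TMM) and compared as log2(value + 2), without a test. The clone 12 libraries carry the labels' replicate numbers 3 and 4.

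All 10 clone-table libraries were fitted together in edgeR 4.0.16 (R 4.3.3) with TMM scaling, a minimum count of 10 in its low-count filter and 1 mean per line, leaving 5 residual degrees of freedom. Clone 4 was contrasted with parental cells and with the mean of clones 10, 11 and 12. Normalised counts were scaled to 21429844 counts per library. The procedure was tested on simulated data drawn with the same dispersion for every gene and line. Those data held no GC or length trend, so they do not check the calls under the trends found here. Floors of 3 counts per library and the intervals of ratios cover counting error only. The corrected fit used per-library smooths of GC content and length (mgcv 1.9.3; longest GENCODE v29 transcript by symbol, 95.5% of tested genes). Gene order came from RefSeq by symbol, and no coordinates of hg19 were converted. Alternatives were other scalings and filters, DESeq2 1.42.0, glmTreat, a replicate block, leaving out each parental or clone 4 library and other window lengths. No library of clones 10, 11 or 12 was left out alone.

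The comparison, the gene lists and the tests were chosen with earlier results of these data known. Named genes were PAX3 and FOXO1; the 12 largest called changes each way with a mean of at least 50 normalised counts; the 6 largest each way among genes set apart; the 6 lowest p each way; and from each list the 4 called members with the smallest p, or all if fewer. LOC, antisense, read-through, histone, ribosomal protein, small RNA and open reading frame names were left out of the ranked parts. Others are named as members of a list or stretch.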

Additional observations from a re-analysis of the deposited data

Results flagged for a closer look

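Of the 34 genes ranked for the size or p of their change from parental, 24 also differed from the mean of clones 10, 11 and 12 by edgeR's test of that difference, 14 higher and 10 lower in clone 4. Groups of 2 libraries allow no check for a library that stands apart within a line.

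The higher genes, by their log2 difference from the other clones, were CPXM1 (10.98), KRT18 (7.84), AFM (5.25), MMRN2 (4.90), UNC13D (4.86), IQSEC3 (4.86), KRT8 (4.71), MGP (3.51), THY1 (3.49), ARHGDIB (3.22), KISS1 (2.44), GPRC5A (2.11), CD163L1 (1.92) and MLIP (1.38). KRT18 was at 826.9 and 893.0 normalised counts in clone 10, and THY1 was higher in clones 10 and 12 than in clone 4, so for these the difference from the mean rests on the clones near 0.

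The lower genes were NRK (-9.16), SLC38A5 (-7.67), LAMA1 (-7.17), ST6GAL2 (-6.71), ELF4 (-5.45), BCL11B (-4.84), CADM1 (-4.81), GP6 (-3.54), SCUBE1 (-3.20) and CAPN6 (-2.92). NRK was also near 0 in clone 12, LAMA1 in clone 10, and GP6 in clones 10 and 12. Fitted values of genes near 0 in a line depend on the prior count and are no bound.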

How the results depend on the processing

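Testing against 1.5-fold (glmTreat) left 1122 genes higher and 1287 lower than parental, 537 and 433 than the other clones, and 223 and 186 set apart. The libraries left out in turn were those of the parental line and clone 4. Leaving out 1 library gave 1967 to 3098 genes higher and 1956 to 3155 lower than parental, 960 to 1148 and 1321 to 1716 of at least 2-fold, 1286 to 2613 and 995 to 2001 against the other clones, and 492 to 1096 and 339 to 730 set apart. Of the calls, 3932 of 6720 and 3893 of 6718 were kept without parental library 1 or 2, and 5392 and 5260 of 6723 without clone 4 library 1 or 2. The corrected fit set 780 genes apart as lower and ended the calls of 11 named genes. DESeq2 called 3354 genes higher and 3193 lower. The highest and lowest window medians were 1.527 and -2.176 with 15 genes per window, and 1.18 and -1.718 with 40; fewer genes per window give a wider range. PAX3 turned to -0.445 without clone 4 replicate 1 and was 0.833, past the threshold, without replicate 2; no other named gene changed sign. Replicate numbers are shared between lines, but the labels state no pairing and the main fit did not pair libraries by number. Any effect that libraries of the same number share is therefore left in the main fit. The correlation of library differences was 0.083 between clone 4 and parental, 0.569 between clones 4 and 10 and 0.187 between clones 4 and 11. With a replicate block over 8 libraries, 3354 genes were higher and 3692 lower, 1039 and 1786 of at least 2-fold, 2238 and 1836 against the other clones, and 810 and 632 set apart; FOXO1 passed there, at -0.678 (edgeR adjusted p = 0.0052), as it did in 8 other settings.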
